A study of Mus musculus with 22 samples.

Results

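Across erythroid differentiation of G1ER cells, 123 genomic regions carried an H3K4me3 peak in each of the 10 H3K4me3 lists while holding neither an annotated transcription start site (TSS) nor any H3K27ac peak. They were selected on these values. The 10 H3K4me3 lists were merged where their peaks touched, which gave 16244 regions, and 11506 of these had a peak in every list. Of the 11506, 9157 held a TSS and overlapped H3K27ac, 1877 overlapped H3K27ac without a TSS (called distal regions with H3K27ac below), 349 held a TSS without H3K27ac, and 123 (1.07%) had neither. Any GENCODE M21 transcript of any type counted as having a TSS at its start, and overlap meant at least 1 shared base with a peak of any of the 10 H3K27ac lists. The H3K4me3 presence, the missing H3K27ac and the missing TSS are therefore descriptions and were not tested.

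G1ER (G1E-ER4) is a clonal mouse erythroid progenitor line derived from G1E cells, which have no functional *Gata1*. A GATA1-ER fusion protein is always present in it and becomes active when estradiol is added. All cells, including those at 0 h, therefore lacked endogenous GATA1 and were grown with SCF and EPO. Cells were profiled untreated (0 h) and after 2, 6, 12, and 24 h of β-estradiol, with 2 ChIP-seq lists per time point for each histone mark and 1 CTCF list at 0 h and at 24 h. The lists held 12925 to 14452 H3K4me3 peaks, 17247 to 18333 H3K27ac peaks, and 33193 (0 h) and 41473 (24 h) CTCF peaks. The study describes its ChIP-seq replicates as independent experiments, and the p-values measure the spread between these lists of 1 line. As a check of the cell type, H3K4me3 covered a protein-coding TSS of *Klf1*, *Epor*, and *Lmo2* in 10 of 10 lists, of *Gfi1b* and *Nfe2* in 9, and of *Kit* and *Zfpm1* in 8. *Tal1*, an erythroid transcription factor, had no peak over its TSS in any list, and the T cell, macrophage, liver, endothelial, fibroblast, muscle, and neuronal markers *Cd3e*, *Csf1r*, *Alb*, *Pecam1*, *Col1a1*, *Myod1*, and *Neurod1* had none either.

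H3K4me3 is deposited by SET1 and MLL complexes and is best known from the promoters of active and poised genes, where it usually lies beside H3K27ac, a mark of active promoters and enhancers. CpG-rich DNA can recruit these complexes through CXXC proteins even where no gene starts. RNA polymerase III genes such as tRNA genes also carry H3K4me3, and CTCF is an insulator and loop-anchor protein that binds a long core motif.

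The sequences at these regions fell into several kinds. At 10 regions they included tRNA genes, which RefSeq annotates, and 4 of these genes are shown to let the shared promoter box be seen. They are shown 5′ to 3′ on their own strand, with the internal B box (GGTTCGA, part of the polymerase III promoter) in capitals. They lie at chr13:21254220-21254291, chr13:21264580-21264653, and chr13:23285401-23285473 (all on the plus strand) and at chr14:51082830-51082911 (minus strand), in GRCm38.p6.
n-TAcgc9: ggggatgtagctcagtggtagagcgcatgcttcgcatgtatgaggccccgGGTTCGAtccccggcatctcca
n-TTcgt2: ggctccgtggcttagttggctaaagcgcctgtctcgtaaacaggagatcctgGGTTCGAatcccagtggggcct
n-TVaac4: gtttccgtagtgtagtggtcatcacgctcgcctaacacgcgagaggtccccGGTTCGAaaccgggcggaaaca
n-TLtag2: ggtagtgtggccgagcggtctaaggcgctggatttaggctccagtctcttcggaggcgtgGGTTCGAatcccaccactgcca

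The CTCF core motif was in the central 500 bp of 4 regions, and each motif lay inside a CTCF peak of both CTCF lists. The 40 bases around each core are shown on the strand of the motif, with the core of 12 bases in capitals. They lie at chr3:84345117-84345156 (plus), chr3:146946192-146946231 (minus), chr5:121842989-121843028 (minus), and chr1:86059615-86059654 (plus).
4930565D16Rik: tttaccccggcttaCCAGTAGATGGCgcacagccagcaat
Ttll7: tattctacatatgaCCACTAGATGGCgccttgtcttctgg
Sh2b3: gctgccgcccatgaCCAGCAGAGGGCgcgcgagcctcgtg
Psmd1: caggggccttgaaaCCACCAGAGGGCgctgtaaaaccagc

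The regions also ranged from CpG-rich to CpG-free sequence. The central 300 bases of the region nearest *Mnx1* (chr5:29468047-29468346) are shown on the plus strand with every CG in capitals, as an example of the CpG-rich kind. It was chosen after the values were seen and holds 33 CG.
Mnx1: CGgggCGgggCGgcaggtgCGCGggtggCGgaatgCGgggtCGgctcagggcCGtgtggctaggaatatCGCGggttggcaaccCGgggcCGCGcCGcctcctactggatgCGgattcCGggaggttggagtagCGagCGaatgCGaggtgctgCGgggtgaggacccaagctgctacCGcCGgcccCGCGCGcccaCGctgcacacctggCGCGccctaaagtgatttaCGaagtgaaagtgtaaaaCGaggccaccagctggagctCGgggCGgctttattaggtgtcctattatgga

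The regions were narrow and low in their lists. Their median merged width was 1388 bp (range 659 to 8341), and the median of their mean covered length, the bases under H3K4me3 peaks averaged over the 10 lists, was 1022 bp (402 to 7710). This compares with 1254 bp for the distal regions with H3K27ac, 2495 bp for the TSS regions without H3K27ac, and 2553 bp for the TSS regions with it. The peak score was ranked within each list as a percentile, and the median of the regions' mean percentile was 18.8, against 25.5, 30.2, and 66.6 in the other classes. A mean percentile under 25 was found at 91 of 123 regions (74.0%), against 48.5% of distal regions with H3K27ac and 13.1% of all 11506. Only 1 region (0.813%) exceeded 50, and 6.87% of distal regions with H3K27ac reached it. The part of these low scores in the selection was not tested.

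Within each list the 123 regions together covered 164 to 188 kb, or 0.551% to 0.586% of all bases under H3K4me3 peaks. Their median length was 1082 and 1166 bp (0 h), 1127 and 976 bp (2 h), 1048 and 1040 bp (6 h), 1063 and 1079 bp (12 h), and 1005 and 1092 bp (24 h). The lists at 0 h and 24 h overlapped in this median. The total was 182 ± 6.74 kb at 0 h and 171 ± 4.22 kb at 24 h (mean ± SD, n = 2). Their median score percentile was 22.7 and 25.6 (0 h), 23.0 and 16.6 (2 h), 19.2 and 20.2 (6 h), 18.2 and 17.4 (12 h), and 17.7 and 17.9 (24 h). The 0 h and 24 h lists did not overlap in this rank, which also depends on the other peaks of each list. The lists held 14014 and 14452 peaks at 0 h, and fewer, 12925 and 13071, at 24 h. The lower rank at 24 h was not tested.

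**Figure D1:**
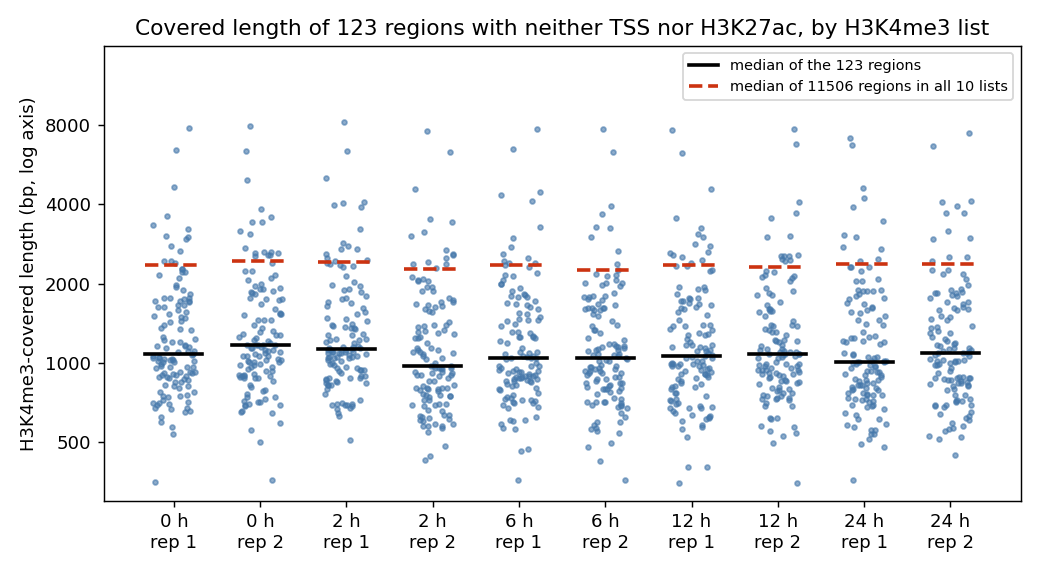
H3K4me3-covered length (bp, log axis) of each of the 123 regions (points) in each of the 10 lists. Black bars are their medians, 976 to 1166 bp, and red dashed bars the medians of all 11506 regions found in every list.

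The highest-ranked of these regions lay in or near genes of varied function. An intron of *Kif21b*, a kinesin motor gene, held the top one (chr1:136139335-136141398), with a mean score percentile of 52.5 and list values from 48.9 to 58.4. Its covered length was 1980 and 1911 bp (0 h), 1970 and 1701 bp (2 h), 1678 and 1537 bp (6 h), 1894 and 1600 bp (12 h), and 1897 and 1854 bp (24 h). The next were near the pseudogene *Gm19309* (49.8), in the antisense transcript *Gm49482* (42.9), and in *Steap3* (40.4), which encodes an endosomal ferrireductase of erythroid iron uptake. *Arhgap23* (38.3), a GTPase-activating protein gene, *Klf16* (37.6), a Krüppel-like factor gene, *Scd2* (36.9), a stearoyl-CoA desaturase gene, and *Il13* (36.7), a type 2 cytokine gene, completed the 8 highest.

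The 4 longest regions lay in introns. In *Bcor*, which encodes a corepressor of a Polycomb complex, the mean covered length was 7710 bp (chrX:12084701-12093041), with 7149 bp as the shortest and 8218 bp as the longest of the 10 lists. *Arntl*, the core circadian clock gene, had 6478 bp (chr7:113256750-113263623), from 6247 to 6763 bp. *Arl15*, an ARF-like GTPase gene, had 4394 bp (chr13:113933223-113938324), and *Steap3* had 3737 bp (chr1:120255537-120260386). The *Bcor* region was long but weak, with a mean score percentile of 16.3. A mean of at least 2500 bp was seen at 10 regions, of which 8 were in introns, and 60 averaged under 1000 bp.

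Between 0 h and 24 h, 1 of the 123 regions was called as changed in covered length (limma adjusted p under 0.05). This was the *Arhgap23* intron (chr11:97439568-97443793), where the length was 1655 and 2003 bp (0 h), 1742 and 1570 bp (2 h), 2310 and 2657 bp (6 h), 2790 and 2565 bp (12 h), and 4226 and 3941 bp (24 h). Both lists at 6, 12, and 24 h lay above all 4 lists at 0 and 2 h, and both at 24 h lay above the rest. The log2 difference of covered length, 24 h minus 0 h, was 1.08 (SE 0.10, limma adjusted p = 0.0036), and the adjusted p over all 5 time points was 0.012. The 24 h call held in all 18 alternatives in which the region could be fitted, while the adjusted p over the time points was 0.053 without replicate 1 at 24 h. The nearest H3K27ac peak lay 1425 bp away, and RefSeq, unlike GENCODE, annotates a start of *Arhgap23* inside the region. A single GATAAG, a sequence that GATA factors bind, lay 185 bp from the region's midpoint. With whole regions searched, GATAAG was in 35.8% of the 123 and in 54.4% of all regions found in every list. A link between this match and the longer H3K4me3 was not tested. The 100 bases around the match (chr11:97441816-97441915, plus strand) are shown with the motif in capitals, because the *Arhgap23* intron was the only region called.
Arhgap23: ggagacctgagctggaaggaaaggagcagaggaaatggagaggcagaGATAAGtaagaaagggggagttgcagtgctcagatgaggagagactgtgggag

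**Figure D2:**
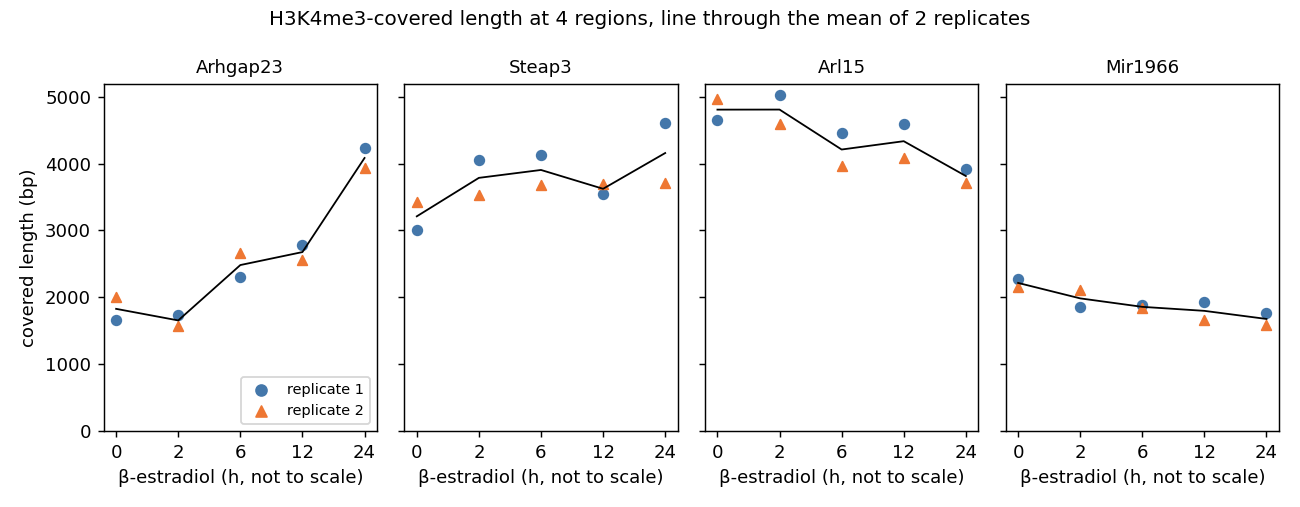
Covered length (bp) at the regions in Arhgap23, Steap3, Arl15, and near Mir1966 against hours of β-estradiol (points are lists, circles replicate 1 and triangles replicate 2, the line joins the means, and time is not to scale). Arhgap23 went from 1655 and 2003 bp (0 h) to 4226 and 3941 bp (24 h), while the other 3 moved by less.

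Of 14862 H3K4me3 regions tested, 0.471% were called longer at 24 h, 1.11% were called shorter, and 1.25% were called at any time point. For the 123 regions these were 1 (0.813%), 0, and 1 (0.813%). The 235 regions called in the whole table at 24 h became 75 of 14647 without replicate 1 at 0 h and 101 of 14568 without replicate 2 at 0 h, with 1 of the 123 called in each case, so the 2 shares were not ranked. No region was called shorter by limma, although 7 were shorter and 2 longer at an unadjusted p under 0.05, which made 7.32% of the 123 against 12.4% of all regions tested. The shorter regions with the smallest p were in *Arl15*, with a log2 difference of -0.32 (SE 0.08, limma adjusted p = 0.16), and near *Mir1966*, a microRNA gene, with -0.36 (SE 0.10, limma adjusted p = 0.16). At *Arl15* the length was 4645 and 4967 bp (0 h), 5022 and 4592 bp (2 h), 4459 and 3961 bp (6 h), 4592 and 4077 bp (12 h), and 3922 and 3706 bp (24 h). The 0 h and 24 h lists did not overlap there, nor at *Mir1966* (lists of 2278 and 2155 bp before treatment against 1768 and 1588 bp at the end). *Steap3* went from 3002 and 3421 bp before treatment to 4600 and 3715 bp (24 h), a log2 difference of 0.35 (SE 0.12, limma adjusted p = 0.27).

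Both lists at 24 h were longer than both at 0 h at 12 of the 123 regions, beside 16.5% of all 11506, and shorter at 41, beside 25.1%. The median log2 difference was -0.10 for the 123 regions, -0.09 for distal regions with H3K27ac, and -0.04 for all 14862 tested. It was above 0 at 32.5% of the 123 and at 31.2% of distal regions with H3K27ac, so the lean was not particular to the 123. Of the 123, 113 differed by less than 0.5. At 2, 6, and 12 h against 0 h the medians were -0.04, -0.08, and -0.07, beside -0.04, -0.06, and -0.05 for all tested. The lowest value, -0.89, was at *Rreb1*, a zinc finger gene, chosen for naming after its value was seen. Its length was 1666 and 1837 bp before treatment, against 825 and 876 bp (24 h). The replicates lay apart at 6 h (1047 and 1955 bp) and at 12 h (1712 and 976 bp), and limma gave an adjusted p of 0.26. The coefficient of variation over the 10 lists had a median of 15.3%, against 7.64% for all 11506. Those were longer, with a median mean covered length of 2355 bp against 1022 bp for the 123. The part of length in this difference was not tested. Among the 123 the coefficient ran from 2.79% at *Arntl* to 42.4% at *Cdyl*, a chromodomain corepressor gene. At *Cdyl* the replicates disagreed, with 1704 and 3834 bp before treatment, then 4088 and 1732 bp (2 h).

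**Figure D3:**
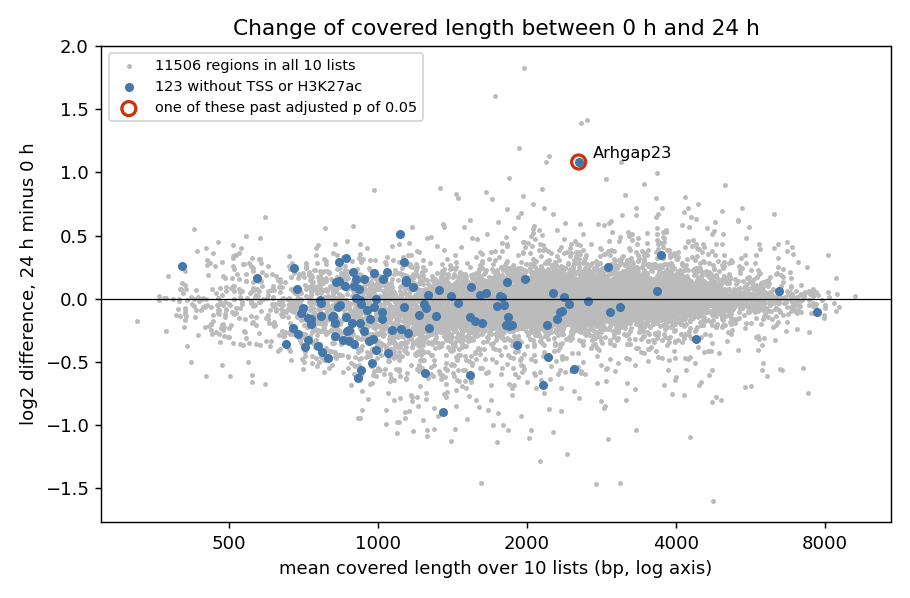
Log2 difference of covered length, 24 h minus 0 h, against mean covered length (bp, log axis) for the 123 regions (blue) and all 11506 regions in every list (grey). The only blue point past the adjusted p threshold (red ring) is Arhgap23 at 1.08, and most others lie between -0.5 and 0.5.

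By position, 68 of the 123 regions (55.3%) were intergenic, 49 (39.8%) intronic, and 6 (4.88%) had their midpoint in an exon. Distal regions with H3K27ac had 58.5%, 35.6%, and 5.86%. The nearest TSS was a median 7228 bp away, against 9605 bp for distal regions with H3K27ac. Within 2 kb of a TSS lay 19 regions (15.4%, against 11.9%), 10 upstream and 9 downstream of it. The nearest H3K27ac peak of any list was a median 14209 bp away, 5 regions had one within 1 kb, and 18 had none within 100 kb. Chromosome 13 held 12 of them, 2.40% of its 500 regions in every list, against 1.07% genome-wide.

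**Figure D4:**
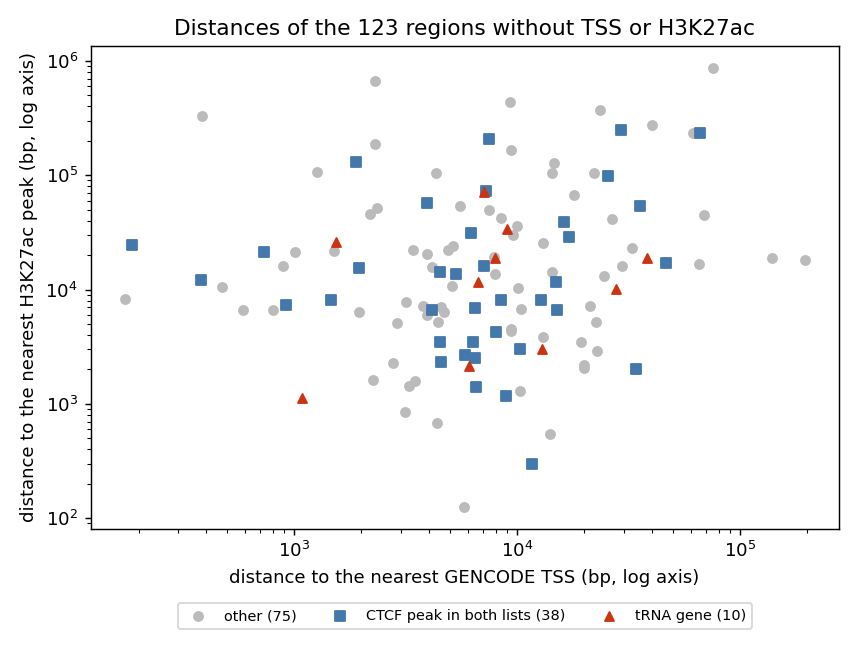
Distance of each of the 123 regions to the nearest GENCODE TSS (x, bp) and to the nearest H3K27ac peak of any list (y, bp), both on log axes. Regions with a tRNA gene (triangles, 10), other regions with a CTCF peak in both lists (squares, 38), and the rest (circles, 75) overlap on both axes, and the medians for all 123 are 7228 bp (x) and 14209 bp (y).

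At the limits of the selection, the 3 regions whose edge was closest to a TSS were near *Gm21586* (173 bp), *Rncr4* (186 bp), a noncoding RNA gene, and *Slc6a4* (383 bp), the serotonin transporter gene. Just outside were 3 regions without H3K27ac whose single TSS lay 80, 122, and 123 bp inside the edge, at *Gm5879*, *Il17d*, and *Gm5525*. Also just outside were 3 regions without a TSS that met H3K27ac in 1 list over 332, 348, and 367 bp, near *Gm28455*, *Gm10320*, and *Gm25812*. Their mean score percentiles were 21.8, 40.8, and 10.5 for the first 3 and 17.1, 16.7, and 16.3 for the second, within the range of the 123.

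RefSeq placed a transcript start in 22 regions (17.9%), against 9.70% of distal regions with H3K27ac. These included starts of *Steap3*, *Crybg1*, *Zc3hav1*, an antiviral protein gene, *Elf1* and *Bbx*, transcription factor genes, and *Lhx9*, a LIM homeobox gene. Noncoding starts lay in the 2 longest regions, *Gm46687* in *Bcor* and *Gm33721* in *Arntl*. At *Rncr4* the region (chr6:30173079-30175086) held the RefSeq start of *Mirc35hg*, a microRNA cluster host gene, and its length was 1719 and 1673 bp (0 h), 1472 and 1588 bp (6 h), and 1625 and 1905 bp (24 h). The promoter in RefSeq's GRCm38.p6 table (chr6:30174076-30174375, minus strand) is shown with the GC box (GGGCGG on either strand) in capitals. Such a box was in the central 500 bp of 47 of 123 regions (38.2%), of 32.3% of distal regions with H3K27ac, and of 52.7% of all 11506.
Mirc35hg: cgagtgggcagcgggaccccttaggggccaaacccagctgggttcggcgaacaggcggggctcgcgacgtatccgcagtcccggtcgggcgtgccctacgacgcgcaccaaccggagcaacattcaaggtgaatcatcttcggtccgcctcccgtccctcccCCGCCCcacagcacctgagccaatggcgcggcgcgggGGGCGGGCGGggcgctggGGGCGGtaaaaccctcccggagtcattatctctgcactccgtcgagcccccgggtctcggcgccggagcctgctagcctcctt

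There were 11 tRNA genes in 10 regions (8.13%), against 3.04% of distal regions with H3K27ac, 0.287% of TSS regions without it, and 0.612% of TSS regions with it. Of the 11, 10 lay wholly inside, and n-TAagc8, near *Sesn2*, crossed the region's edge. Of the 10 regions, 6 were on chromosome 13, with *Gpx5* (2 regions), *Gpx6*, *Prss16*, *4933404K08Rik*, and *Gm11334* as nearest genes. Their tRNA genes included those for alanine, threonine, methionine, glutamine, and valine, and the other regions carried leucine, glycine, and alanine tRNA genes. The B box letters occurred in 7 of the 11 genes and in 59.6% of all 403 RefSeq tRNA genes. Of these 403 genes, 108 lay in distal regions with H3K27ac and 100 in TSS regions with it.

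The tRNA regions had a median mean covered length of 1510 bp and a median score percentile of 26.0. The highest was near *Rnase4* at 36.6, with a length of 2224 and 2623 bp (0 h), 2355 and 2366 bp (2 h), 2504 and 2366 bp (6 h), 2330 and 2240 bp (12 h), and 2322 and 2183 bp (24 h). The lists at 0 h and 24 h overlapped there. Near *Gpx6* the length was 1505 and 1609 bp before treatment, 929 bp in 1 list at 6 h, then 1554 and 1621 bp (24 h). None of the 10 was called by limma, and their log2 differences ran from -0.21 to 0.29.

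CTCF was measured in lists that the selection did not use. A CTCF peak overlapped 42 regions at 0 h (34.1%, 95% Wilson interval 26.4% to 42.9%) and 46 at 24 h (37.4%, 29.4% to 46.2%), 40 of them in both lists. Over all 11506 regions the shares were 32.8% and 40.6%. With the window held to the central 500 bp, they were 26.8% and 31.7%, beside 27.7% and 30.9% for distal regions with H3K27ac, 13.2% and 18.9% for TSS regions without it, and 16.1% and 25.1% for TSS regions with it. With 1 list per time point there was no replicate, and the intervals cover counting error only.

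The highest CTCF scores in both lists were in *Ttll7*, a tubulin polyglutamylase gene (within-list percentiles 99.1 at 0 h and 99.4 at 24 h), near *Sh2b3*, which encodes an adaptor that restrains cytokine receptor signaling (97.9 and 99.1), near *4930565D16Rik* (95.9 and 98.5), and in *Sp9*, a zinc finger transcription factor gene (94.9 and 97.0). The first 3 are among the 4 whose core motif is shown above. Their H3K4me3 was weak, with mean score percentiles of 15.4, 9.36, 16.3, and 22.8. Over the 40 regions with CTCF in both lists, the median CTCF percentile was 80.6 at 0 h and 85.7 at 24 h, close to the 79.3 and 85.1 of distal regions with H3K27ac. The median distance from the CTCF midpoint at 0 h to the region midpoint was 250 bp. The CTCF core letters were in 4 of 123 centers (3.25%), in 2.66% of distal regions with H3K27ac, and in 0.782% of all 11506.

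The median base composition of the 123 regions lay nearer to that of distal than of TSS regions. The central 500 bp had 49.6% GC and an observed to expected CpG ratio of 0.421, beside 48.8% and 0.406 for distal regions with H3K27ac and 59.0% and 0.696 for TSS regions with it. The ratio ran from 0 at *Rreb1* to 1.04. There were 20 regions (16.3%) that were CpG-rich, with at least 55% GC and a ratio of at least 0.65, against 8.68%, 34.1%, and 48.7% in the distal H3K27ac, TSS without H3K27ac, and TSS with H3K27ac classes. They included the region near the homeobox gene *Mnx1*. At *Mnx1* the length was 1425 and 1216 bp before treatment against 1243 and 1305 bp (24 h), so the time points overlapped. Soft-masked repeats made up a median 12.4% of the center.

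GATAAG was in 12 of the 123 centers (9.76%), beside 17.7% of distal regions with H3K27ac and 10.6% of all 11506. Over the central 1000 bp it was in 21.1%, beside 21.4% of all 11506. The ETS letters CCGGAAG were in 9 (7.32%), beside 5.91% and 13.4%. CACGTG, an E-box, was in 11 (8.94%, beside 13.2% of distal regions with H3K27ac), the NRF1 core in 2, the ZBTB33 core in 1, and the B box letters in 4 (3.25%, beside 3.36% and 2.62%). All motifs were searched on both strands, and a match describes the letters only. No nearest gene matched the name patterns of the erythroid, mast and other blood, zinc finger, germline, or imprinted gene lists. These patterns are not full lists of such genes, and *Rreb1* and *Sp9*, both zinc finger genes, are not matched. Nor are *Klf16*, *Steap3*, and *Il13*, whose functions are given above. The 1877 distal regions with H3K27ac met the lists at 2 (0.107%), 3 (0.160%), 27 (1.44%), 0, and 4 (0.213%) regions. These shares are small, so a count of 0 among 123 regions was not read as an absence. *Lhx9* was the 1 nearest gene (0.813%) in the list of developmental regulators, beside 0.906% of distal regions with H3K27ac and 0.513% of all 11506. The olfactory receptor gene *Olfr1402* was the 1 in that of immune cluster and receptor genes, beside 0.906% and 0.252%. None of tRNA gene, RefSeq start, and CTCF peak was found at 57 of the 123 regions (46.3%), whose median mean covered length was 1046 bp and median score percentile 18.8.

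**Figure D5:**
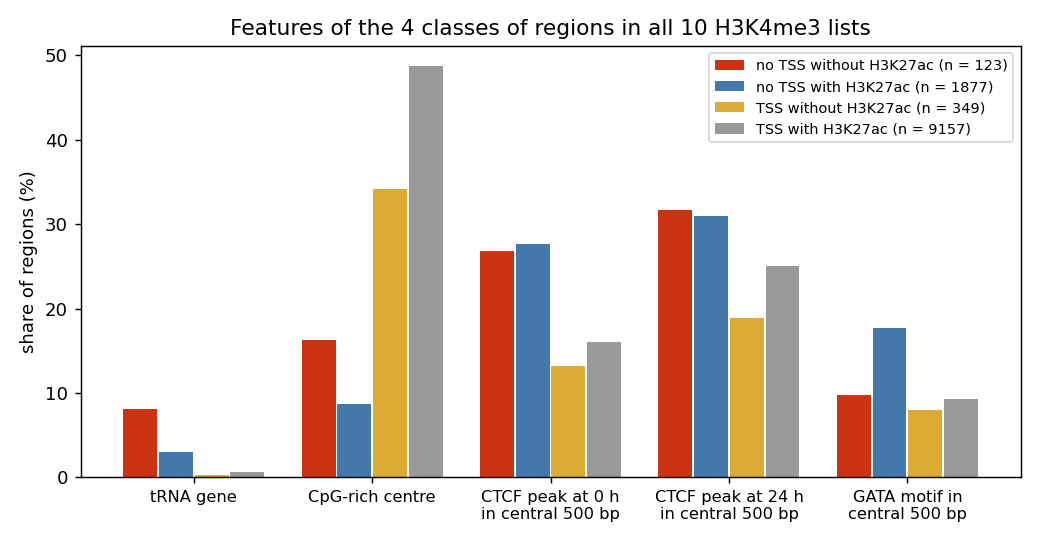
Share of regions (%) with a tRNA gene, a CpG-rich center, a CTCF peak in the central 500 bp at 0 h and 24 h, and a GATAAG motif there, for the 4 classes of regions found in all 10 H3K4me3 lists (bars start at 0). The 123 regions (red) show 8.13% with a tRNA gene and stand close to distal H3K27ac regions (blue) for CTCF.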

How the data were processed

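Per the labels and the study's methods, the authors aligned histone ChIP-seq reads to mm10 with Bowtie2, kept uniquely mapped reads, and called peaks per library with MACS without its model step. The sources used here do not give the MACS version, threshold, or control library, nor the CTCF processing. They also do not say whether genome regions prone to false peaks (blacklisted regions) were removed from the mouse lists. Whether any region described here is such an artifact was not tested. The deposited peak score is the authors' value and was used only as a rank within its list. Read counts are not part of the lists, which leaves the sequencing depth of each sample unknown. A label names a human build, but the positions are those of mm10.

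Regions, overlaps, TSS (GENCODE M21), RefSeq genes (GRCm38.p6), and 8 motifs (both strands) were handled in Python 3.11.15 (pandas 2.3.3 and numpy 2.4.6, intervals from scipy 1.17.1, plots from matplotlib 3.10.9). Covered length was tested as log2(bp + 200) with limma 3.58.1 (R 4.3.3; lmFit and eBayes with trend, a mean per time point) over the 14862 regions found in 2 or more lists, using Benjamini-Hochberg adjustment and a threshold of 0.05. The log2 scale with this pseudocount understates changes of short regions. The step was tested on simulated data with planted changes. The simulated spreads were capped below the largest real ones, so this check did not cover the most variable regions. Where the same replicate number was shared, deviations correlated by -0.116 to 0.039 between time points, so numbers were not taken as pairs.

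Regions were named by the nearest TSS: the 8 highest by score percentile, the 4 longest, those called (or the 2 with the smallest p), the 4 with the highest CTCF percentiles, those at the limits of the selection, and those with a listed gene, tRNA gene, or motif. The regions and the 7 gene lists were chosen with earlier results of these data known. A few genes and sequences are not reported here.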

Additional observations from a re-analysis of the deposited data

How the results depend on the processing

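The number of regions was 123, and 124 to 134 without any 1 of the 20 histone lists. It was 0 with only H3K4me3 peaks at or above their list's median score and 965 with only such H3K27ac peaks, so it depended on both thresholds. Requiring no RefSeq start or tRNA gene, an alternative chosen after seeing the data, left 94. The count of regions that differed between 24 h and 0 h was 1, and 1 with the replicate block, which changed no call among the 123. Over all regions tested the block took the calls from 235 to 146, and fitting only the 4 lists at these time points gave 734 of 13875. It was 2 when only the 4 lists of these time points were fitted (*Rreb1* added), 2 with scaling by median peak length (*Arl15* added, log2 difference -0.38, limma adjusted p = 0.045), and 0 with peaks at or above the median score, where only 2 regions were fitted. Leaving out 1 list gave 1 to 3, with 3 without replicate 2 at 24 h (*Gm15518* and *Gm25613* added). At any time point leaving out 1 list gave 0 to 2, with 0 without replicate 1 at 24 h and 2 without replicate 1 at 6 h or replicate 2 at 24 h. At *Arhgap23* the log2 difference stayed between 0.85 and 1.21 over 18 alternatives. The median log2 difference of -0.10 ran from -0.11 to -0.04 when 1 list was left out, with -0.04 without replicate 2 at 0 h. With scaling by median peak length it was -0.16, beside -0.09 for all regions tested. With CTCF peaks at or above their list's median score, the shares were 24.4% at 0 h and 26.8% at 24 h, beside 20.1% and 24.2% of all 11506. Over the whole region the median GC content was 47.1%. The CpG ratio was 0.355 over the central 1000 bp and 0.345 over the whole region, and the repeat share was 14.6% and 18.4%. Motif shares rose with the window. Over the whole region GATAAG was in 35.8% (54.4% of all 11506), the E-box in 29.3% (40.0%), the GC box in 58.5% (83.7%), and the B box in 8.13% (10.6%). The 123 regions had a smaller median width than all 11506, so more sequence was searched in the larger set. These whole-region shares were therefore not read as a difference in motif content. Depth is unknown, so whether a missing H3K27ac peak reflects low signal or shallow sequencing was not tested.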
